A study of Xenopus laevis with 12 samples.

Results

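The control embryos of this study were 6 single, whole Xenopus laevis embryos that had been given GFP mRNA at the 8-cell stage and were collected at stage 11.5, when gastrulation is well under way. They were chosen by their labels and make up 6 of the 12 embryos of the series, and the embryos given Nkx2-5 mRNA were not used. GFP is the jellyfish fluorescent protein, so these are injected controls and not untreated embryos. The labels give neither the injected blastomere and dose nor the parents or strain of the embryos, and the replicate numbers 1 to 6 are the embryo numbers used here. Each embryo's RNA was hybridised to its own 1-colour Affymetrix array after a 2-cycle amplification from 100 ng of total RNA.

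During gastrulation the embryo of the frog sorts its cells into ectoderm, mesoderm and endoderm. The dorsal organizer secretes inhibitors of BMP, Wnt and Nodal signals, and the level of BMP signalling that remains patterns the embryo from its back to its belly. RNA stored in the egg is still present at this time beside RNA made by the embryo's own genes.

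A probe set is a group of short probes against 1 transcript, and its deposited value, the signal, is on a linear scale. The array gave signals for 15491 probe sets besides the manufacturer's controls, and levels are given below as signals or as log2(signal + 16). For a gene with several probe sets the one of highest mean stood for it, which gave 7531 genes, with the L and S copies of the doubled X. laevis genome counted apart. The median over probe sets was 8.44 on the log2 scale, and 4548 genes (60.4%) lay at or above it. A signal depends on the probes as well as on the RNA, so an order of genes is an order of signals and not of transcript numbers. In RNA of whole embryos, fewer cells of a type and less RNA per cell cannot be told apart.

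The 6 arrays were alike, with pairwise correlations of log2 values between 0.972 and 0.982, and no array repeated another. Median signals lay between 319 and 350 and were highest in embryos 6 and 3. The first principal component of the probe sets at or above the median held 46.7% of their variance, with embryos 3 and 6 at one end (scores of 0.24 and 0.16) and embryos 5 and 1 at the other (-0.20 and -0.12). The 3' to 5' ratio of the beta-actin control probe sets, a sign of RNA length, was 4.27, 2.93, 3.40, 4.15, 3.03 and 2.81 in embryos 1 to 6, and that of GAPDH was 47.3 in embryo 3 against 23.0 to 29.9 in the others. Embryo 3 held the highest value of 23.6% of these probe sets and embryo 5 the lowest of 21.9%, where an equal share is 16.7%.

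Markers of the germ layers were present and the chosen markers of later cells were near the floor. Of 23 marker genes for mesoderm, endoderm, organizer, ventral side, neural plate and epidermis, 21 lay at or above the median. Of 8 marker genes of blood, heart, skeletal muscle, pancreas and neurons, 0 did, and their mean signals lay between 17.9 and 68.5. Not all genes of such tissues were dim. Others, among them hba-l5.L, atp2a1.S and gad1.2.L, lay above the median, as given below. tbxt.S, the mesodermal T-box factor Brachyury, had the highest signal of the marker genes, at 7781 ± 582 (SD, n = 6). sox3.S, a Sox factor of the neural ectoderm, followed at 5533 ± 542. The ventral homeobox gene ventx2.1.S stood at 3807 ± 709, the BMP inhibitor chrd.1.S (chordin) at 3097 ± 567, the endodermal sox17b.1.S at 2879 ± 434 and the epidermal keratin krt12.4.L at 1528 ± 354. Each value is the mean signal of a different probe set. The markers below the median were gsc.S, a copy of the organizer gene goosecoid, at 325 ± 73.9, and myod1.L, a copy of the muscle determination factor MyoD, at 133 ± 37.5. Their other copies, gsc.L at 352 ± 82.8 and myod1.S at 450.1 ± 134, lay above it.

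srsf2.L, a splicing factor of the SR family, had the highest mean signal, with a lowest value of 37869, a median of 41731 and a highest of 45214. Next came prmt1.L, an arginine methyltransferase, eef1a1.S, the elongation factor that brings tRNA to the ribosome, and has-rs.S, named as a relative of the hyaluronan synthases. The 20 brightest also held the splicing factor srsf5.S, the histone genes h2az1.L, h3-5.L and h3-3b.L, the Hsp70 chaperones hspa8.L and hspa1l.S, both copies of the chromatin protein hmgb3, and odc1.L, the enzyme that makes the first polyamine. The hyaluronan synthase has1.S, the cold-inducible RNA-binding protein cirbp.L, the centrin cetn3.S, the cyclooxygenase ptgs2.S, anp32c.S and LOC100036828 were among them as well, and 1 sequence-specific factor of development was, vegt.L. Other probe sets of the same genes had mean signals of 389 for srsf2.L, 616 for prmt1.L, 2106 for cirbp.L, 3974 for eef1a1.S and 5381 for h3-5.L. Those of odc1.L, srsf5.S and hmgb3.S lay between 16414 and 33504. The probe set of hmgb3.L is of a kind that can detect more than 1 transcript.

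These 20 genes varied little among the embryos. Their SD on the log2 scale lay between 0.06 for hmgb3.S and 0.15 for h3-5.L. The median SD in the brightest of 10 bins of probe sets by level was 0.14, so small SDs are usual at this level. Embryo 2 held the highest value of 13 of the 20 and embryo 6 the lowest of 15, while over all genes at or above the median those shares were 12.9% and 17.4%. After quantile normalization, which makes the distribution of signals the same on every array, embryo 2 was highest for 5 and embryo 6 lowest for 2. With arrays scaled to the same median, embryo 2 was highest for 9 and embryo 6 lowest for 16. No shares of all genes under these scalings are given beside the counts.

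**Figure D1:**
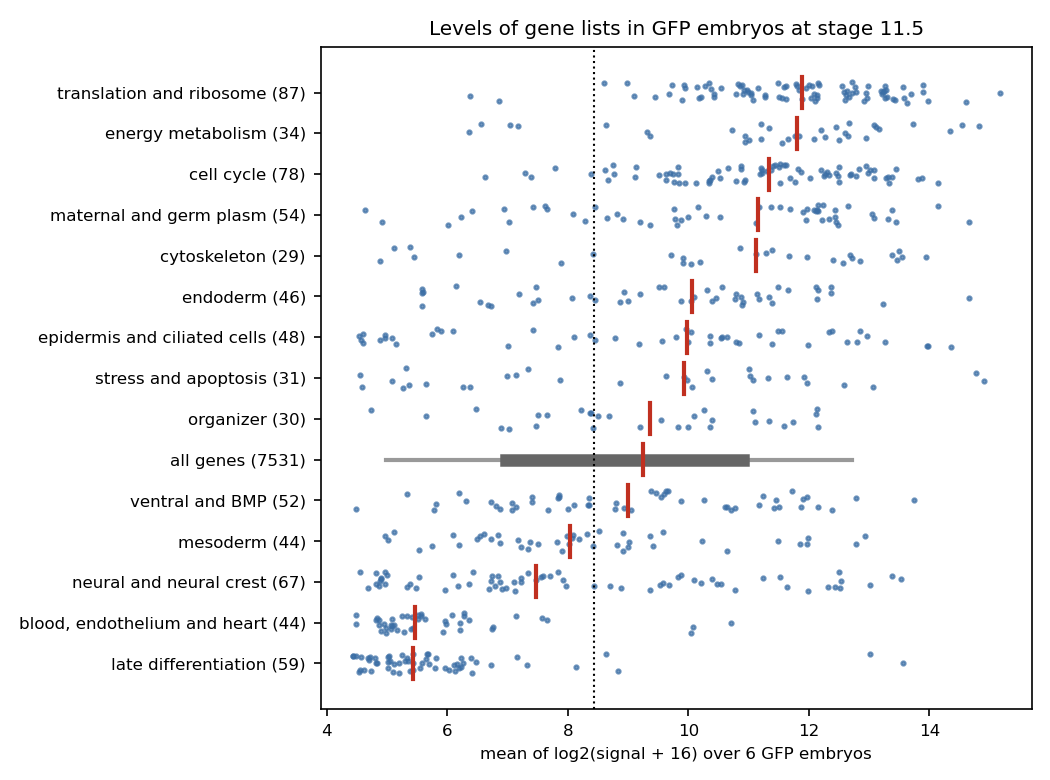
Mean of log2(signal + 16) over the 6 GFP embryos for the members of 14 gene lists (points, numbers of genes in parentheses), with each list's median as a red bar and the median of all probe sets, 8.44, as a dotted line; for all 7531 genes the bars span the middle of the distribution and its 5th to 95th percentiles. Translation genes sit at the top with a median of 11.88, and late differentiation genes at the bottom with 5.44.

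Grouped by function, genes of the growing and dividing cell lay high and genes of finished tissues lay low, as the plot of list members shows. Of 87 translation and ribosome genes 85 lay at or above the median, of 78 cell cycle genes 73, and of 34 genes of energy metabolism 30. Their list medians were 11.88, 11.34 and 11.80 on the log2 scale, where that of all genes was 9.25. Among cell cycle genes ccnb1.2.L, a B-type cyclin of mitosis, was the brightest at 18226 ± 2097 and mcm5.S, a copy of a replication helicase subunit, the dimmest at 89.9 ± 39.3. The other copy, mcm5.L, stood at 3485 ± 413.

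Genes of finished tissues were mostly dim. In the blood, endothelium and heart list 3 of 44 genes lay at or above the median, and in the late differentiation list 4 of 59. The 3 were gata2.L, a GATA factor that also acts in ventral ectoderm, the receptor tyrosine kinase tek.S and the alpha globin hba-l5.L. gata2.L stood at 1791 ± 784, tek.S at 1090 ± 217 and hba-l5.L at 1071 ± 289. In the late differentiation list, 2 genes stood far above the rest. These were gad1.2.L, an enzyme that makes the transmitter GABA, at 12048 ± 855 and the calcium pump atp2a1.S at 8249 ± 432, which lay above 98.3% and 96.7% of all genes. The gene names are those of the array's annotation, and whether the probes of gad1.2.L bind its RNA could not be checked without their sequences. tek.S, hba-l5.L and atp2a1.S were named after their values were seen.

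The germ layer lists lay between these. At or above the median were 32 of 46 endoderm genes, 30 of 48 of epidermis and ciliated cells, 18 of 30 organizer genes, 29 of 52 of the ventral side and BMP pathway, 26 of 67 of neural plate and neural crest, and 17 of 44 mesoderm genes. For endoderm, epidermis, organizer and ventral genes these are 69.6%, 62.5%, 60.0% and 55.8%, of which the last 3 are near the 60.4% of all genes, and for neural and mesoderm genes 38.8% and 38.6%. The brightest members were vegt.L in endoderm, krt70.S in epidermis at 21169 ± 2289, sox11.S in the neural list and tbxt.S in mesoderm. ctnnb1.S, which encodes beta-catenin, was the brightest of the organizer list at 4533 ± 425, and bmp7.2.L the brightest of the ventral list. The dimmest members included sia2.S, a copy of a homeobox gene that acts in the blastula organizer, at 10.9 ± 3.27, and neurog2.L, a proneural bHLH factor, at 7.82 ± 4.96. The copy neurog2.S stood at 125 ± 22.8, also below the median. Of 54 maternal and germ plasm genes, 42 lay at or above the median. This list also holds syn1.L and tubb3.L, which stand in the late differentiation list as well.

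Most regulators lay below the median. Of 462 genes of DNA-binding and related regulators 172 (37.2%) lay at or above the median, and of 173 signalling genes 74 (42.8%), where all genes had 60.4%. The share differed between families. It was 1 of 24 for Hox and Cdx genes, 5 of 35 for nuclear receptors, 5 of 14 for T-box genes, 9 of 16 for Sox genes and 9 of 14 for Smad, Tcf/Lef and beta-catenin genes. The Hox and Cdx gene above the median was cdx1.S, a caudal-type factor of the posterior embryo, at 2992 ± 904, and every Hox gene measured here lay below it. The brightest nuclear receptor was rarg.S, a receptor for retinoic acid, at 2491 ± 265.

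**Figure D2:**
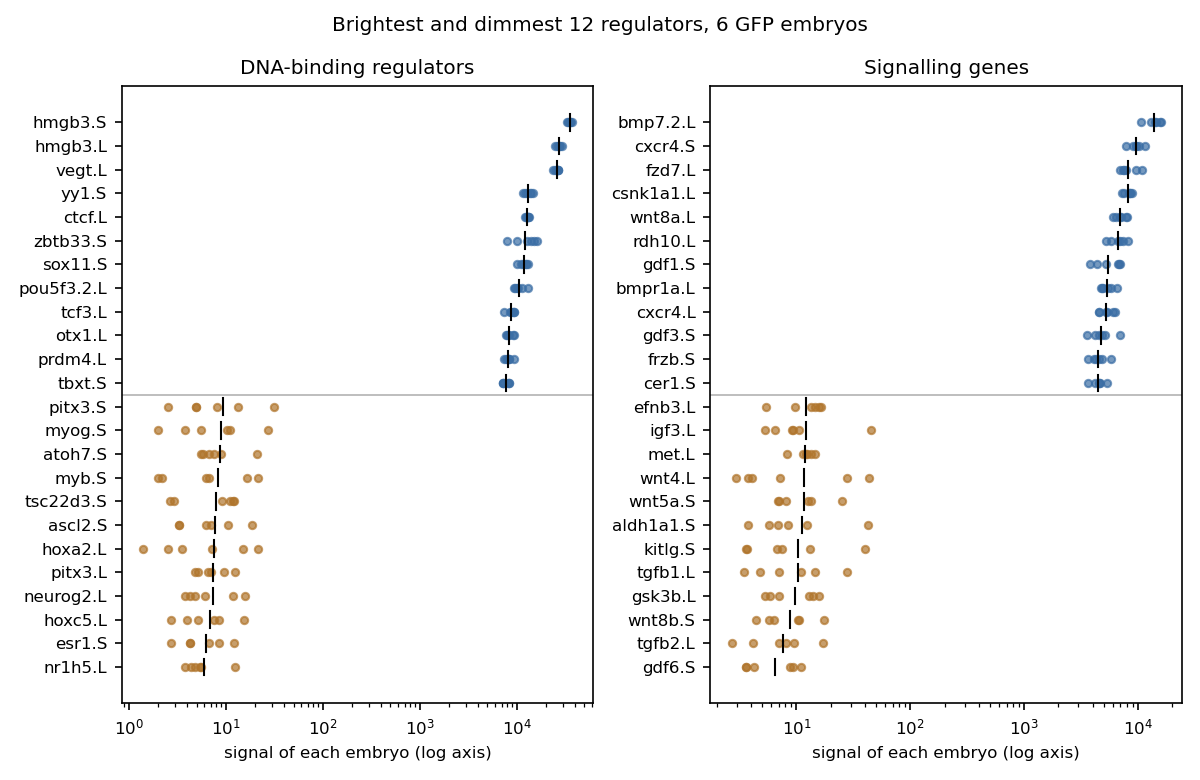
Signals of the 12 brightest (blue) and 12 dimmest (brown) genes in each class of regulators, 1 point for each of the 6 GFP embryos on a log axis, with a black bar at the mean of the log2 values. The regulators of levels between are not shown, so the gap follows from the choice of genes. The dimmest, which are at the floor, scatter more on this axis.

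Among DNA-binding regulators the brightest were the hmgb3 copies, which bind chromatin without a strict sequence, followed by vegt.L, a T-box factor stored in the egg that starts endoderm formation. vegt.L ranged from 23922 to 27056 with a median of 26243. Its copy vegt.S stood far lower, at 941 ± 191. After these came general factors present in many cells, namely yy1.S at 13233 ± 1184, the insulator protein ctcf.L at 12932 ± 471 and the Kaiso gene zbtb33.S at 12691 ± 3151. zbtb33.S differed from its neighbours in its spread, with 7999 in embryo 3 and 16255 in embryo 1, and an SD above that of 98.0% of genes in the same of 10 equal bins of level. A pair of other probe sets of zbtb33.S had SDs of 0.09 and 0.11 on the log2 scale, against 0.39 here. Their correlations to the probe set used here were -0.40 and -0.02, and that probe set is of a kind that can detect more than 1 transcript.

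The developmental factors at the top were sox11.S at 11864 ± 1096, pou5f3.2.L, a relative of mammalian Oct4 that keeps cells uncommitted, at 10661 ± 1336, the bHLH E protein tcf3.L at 8788 ± 741, the homeobox gene otx1.L at 8464 ± 679, the zinc finger gene prdm4.L at 8197 ± 688 and tbxt.S. Neighbours in this order overlapped in their values. The other probe sets of tcf3.L had mean signals of 528 and 785, and those of prdm4.L 1895 and 31.6. tbxt.S lay between 7188 and 8387, a 1.17-fold range.

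The dimmest DNA-binding regulators were pitx3.S, myog.S, atoh7.S, myb.S, tsc22d3.S, ascl2.S, hoxa2.L, pitx3.L, neurog2.L, hoxc5.L, esr1.S and nr1h5.L. They include factors of lens and retina (pitx3, atoh7), of muscle (myogenin, myog), of blood (myb) and of steroid response (the estrogen receptor esr1). Their mean log2 values lay between 4.45 and 4.67. myog.S, for example, ranged from 2.02 to 27.3 with a median of 7.96, and its copy myog.L from 5.94 to 69.0. Each of the 12, and each of the 12 dimmest signalling genes, lay below the 10th percentile of its array in at least 4 of the 6 embryos, so these values are at the floor of the measurement and their order is not resolved.

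Signalling genes at the top covered ligands, receptors and secreted inhibitors. Among the ligands, bmp7.2.L, a BMP, was the brightest with values from 10557 to 15783 and a median of 14272. wnt8a.L, a Wnt of the ventral and lateral mesoderm, stood at 7048 ± 751. gdf1.S, the maternal ligand Vg1, stood at 5647 ± 1371 and the related gdf3.S at 4870.2 ± 1175, and both of these varied more than most genes of like level, with SDs above those of 97.5% and 95.8% of genes in their bins. gdf1.S had its highest values in embryos 3, 6 and 4 and its lowest in embryo 5.

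Among the receptors, cxcr4.S, the receptor for a chemokine that guides migrating cells, stood at 9648 ± 1204 and its copy cxcr4.L at 5319 ± 716. fzd7.L, a Wnt receptor, stood at 8356 ± 1500 and bmpr1a.L, a type I BMP receptor, at 5370.2 ± 717. The other probe sets of fzd7.L had mean signals between 184 and 1944, and those of bmpr1a.L 4538 and 1837. The brightest secreted inhibitors were frzb.S, which binds Wnt proteins, at 4528 ± 726 and cer1.S (cerberus), which binds BMP, Wnt and Nodal ligands, at 4476 ± 557. The list was completed by csnk1a1.L, a kinase that marks beta-catenin for removal, and rdh10.L, an enzyme of retinoic acid synthesis. The dimmest signalling genes were efnb3.L, igf3.L, met.L, wnt4.L, wnt5a.S, aldh1a1.S, kitlg.S, tgfb1.L, gsk3b.L, wnt8b.S, tgfb2.L and gdf6.S. kitlg.S, between 3.64 and 40.4, had a copy kitlg.L at 1235 ± 183, so the position of 1 copy does not stand for the gene.

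The spread among embryos was small for most genes. Among the 4548 genes at or above the median, the median SD was 0.18 on the log2 scale and the 95th percentile 0.42. The SD was under 0.1 for 624 genes (13.7%), at least 0.5 for 110 (2.42%) and at least 1 for 5. It fell with level, from a median of 0.56 in bin 2 of 10 bins of probe sets by level to 0.14 in the brightest bin. The 8 genes of smallest SD were csnk2b.S, dnajc7.L, bnipl.L, snap29.L, dnajc25.S, naa50.S, ostf1.L and tent2.S. tent2.S, a poly(A) polymerase that acts on stored RNA, ranged from 6313 to 6496, a 1.03-fold range.

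**Figure D3:**
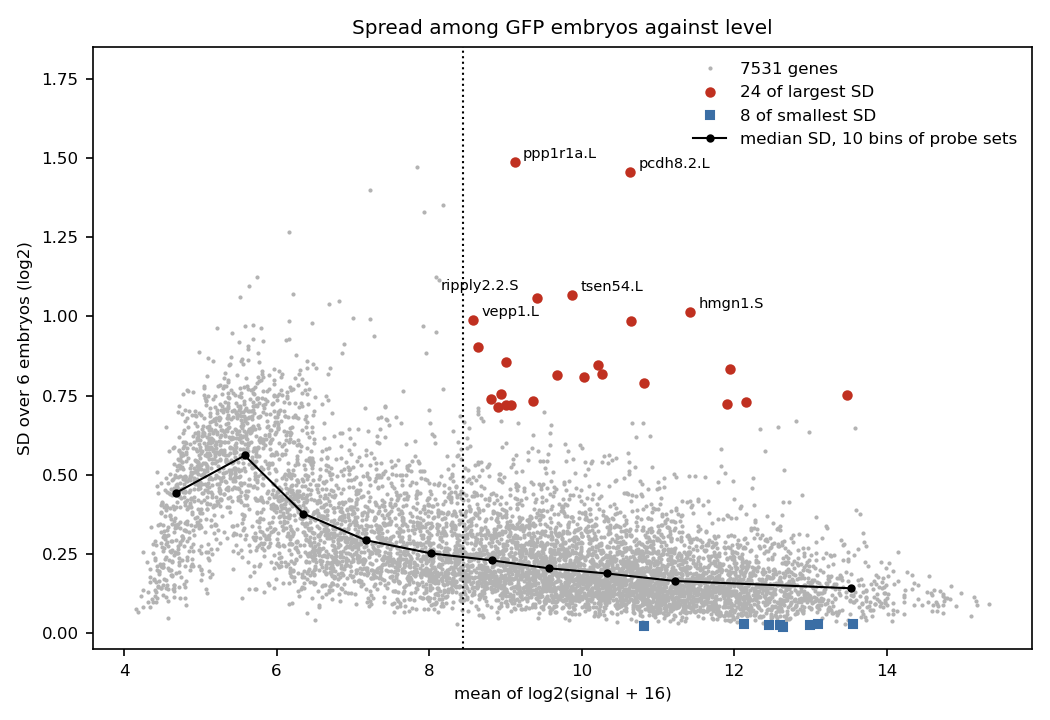
SD over the 6 GFP embryos against the mean, both on the log2(signal + 16) scale, for 7531 genes (grey), with the 24 genes of largest SD (red) and the 8 of smallest SD (blue) among those at or above the median (dotted line); the black line joins the median SD of each of 10 bins of probe sets. ppp1r1a.L and pcdh8.2.L lie apart at SDs of 1.49 and 1.46.

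The genes of largest SD were chosen by that value, so it is a description and no test was made of it. The last of the 24 was msgn1.L with an SD of 0.71, and the first outside was fbxo43.L with 0.71 as well, so the boundary separates nothing. Of the 100 probe sets of largest SD, 42 carried no gene name here, where 31.4% of probe sets at this level did.

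ppp1r1a.L, an inhibitor subunit of protein phosphatase 1, had the largest SD, with signals of 1523, 180, 496, 993, 1385 and 121 in embryos 1 to 6. Embryos 1, 5 and 4 were high and embryos 6 and 2 low, a 12.6-fold range. Its copy ppp1r1a.S was at the floor, with a mean of 4.19.

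pcdh8.2.L, the paraxial protocadherin of involuting mesoderm, had signals of 742, 3558, 4258, 520, 629 and 4119. Embryos 2, 3 and 6 were high and embryos 1, 4 and 5 low, with no embryo between. This order was not that of the other variable mesoderm genes.

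Other mesoderm genes among the 24 were ripply2.2.S, a co-repressor of T-box factors in the presomitic mesoderm, snai1.S, a zinc finger repressor of epithelial genes, msgn1.L, a bHLH factor of the presomitic mesoderm, and hes7.1.L, a Notch target of segmentation. ripply2.2.S had signals of 1582, 751, 340, 645, 1374 and 233, high in embryos 1 and 5 and low in 3 and 6. msgn1.L had 949, 551, 276, 313, 707 and 309, again highest in embryos 1 and 5. snai1.S ran differently, with 784, 587, 2502, 2032, 758 and 1486, highest in embryos 3 and 4. hes7.1.L had 374, 489, 206, 708, 809 and 713 and was lowest in embryo 3.

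Epithelial and secreted products were also among the 24. gjb2.L, the gap junction protein connexin 26, had signals of 6248, 4638, 1855, 5743, 6171 and 1898, with embryos 3 and 6 well below the other four. ag1.S, an anterior gradient gene of the cement gland, ranged from 765 in embryo 3 to 3259 in embryo 6. bmp1.S, a metalloprotease of the tolloid family, ranged from 214 in embryo 4 to 926 in embryo 6. dnd1.L, an RNA-binding protein of the germ plasm, was highest in embryo 6 at 1093, and the others lay between 278 and 576.

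Nuclear and other genes made up the rest. tsen54.L, a subunit of the tRNA splicing endonuclease, had signals of 637, 452, 2221, 1284, 385 and 1930, high in embryos 3 and 6. hmgn1.S, a nucleosome-binding protein, had 4352, 1234, 3245, 1052, 5986 and 3764, low in embryos 2 and 4. The probe sets of tsen54.L, cdca7.L, bmp1.S and hmgn1.S are of kinds that can detect more than 1 transcript. vepp1.L, LOC398162, trim29.L, LOC100653495, tmpo.L, rhbdd2.S, xenf.L, anxa2.L, satpb.L, atg16l1.S and slc25a29.L completed the group, with SDs between 0.72 and 0.99.

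**Figure D4:**
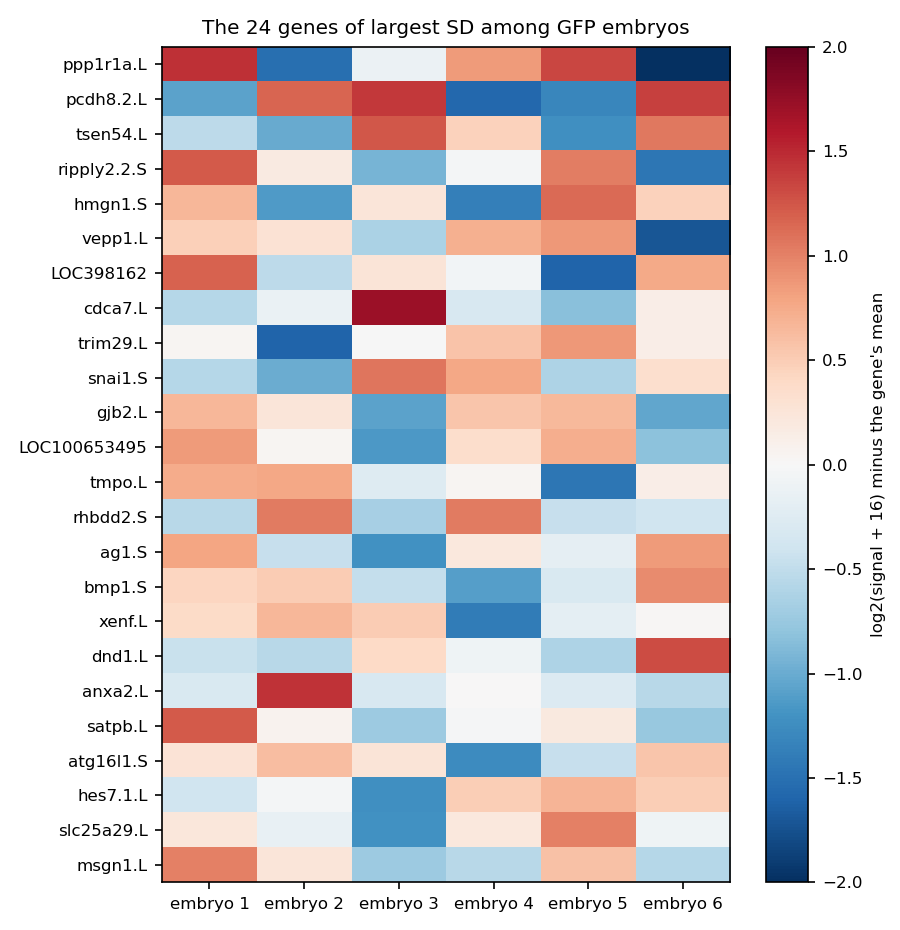
Deviation of log2(signal + 16) from each gene's mean in the 6 GFP embryos (columns) for the 24 genes of largest SD at or above the median (rows, largest first); red is above and blue below the mean, and the scale ends at 2. Embryos 3 and 6 often differ in sign from embryos 1 and 5.

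In several of these genes 1 embryo made most of the spread. The SD of cdca7.L, which acts in chromatin and cell division, was 0.90, with a signal of 1287 in embryo 3 against 206 to 421 elsewhere. Without embryo 3 another probe set of cdca7.L had the higher mean and stood for the gene. The SD of 0.23 found then belongs to that probe set and does not measure the part of embryo 3. The SD of anxa2.L, an annexin, was 0.73 and fell to 0.20 without embryo 2. Without embryo 2 it was 0.38 in place of 0.86 for trim29.L, and without embryo 4 it was 0.35 in place of 0.75 for xenf.L and 0.43 in place of 0.72 for atg16l1.S.

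A further 6 genes had an SD that moved by more than 1.5 times without 1 embryo. hes7.1.L had an SD of 0.45 without embryo 3, in place of 0.72. Without embryo 5 another probe set of hes7.1.L had the higher mean and stood for the gene. The SD of 0.27 found then belongs to that probe set and does not measure the part of embryo 5. Without embryo 6 the SD was 0.59 for vepp1.L in place of 0.99 and 0.42 for dnd1.L in place of 0.74. It was 0.46 for satpb.L without embryo 1 in place of 0.73, 0.46 for tmpo.L without embryo 5 in place of 0.82, and 0.46 for slc25a29.L without embryo 3 in place of 0.72.

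Some of the variable genes set embryos 1 and 5 against embryos 3 and 6, the ends of the first principal component, as did many genes of all kinds. Among the 24, 9 were highest in embryo 1 or 5 and lowest in 3 or 6, and 3 were the reverse. Among the 110 genes with an SD of at least 0.5 the shares were 31.8% and 40.0%, and over all genes at or above the median 18.5% and 25.5%. The reverse was thus the less frequent among the 24 but the more frequent in both larger sets. These pairs of embryos were picked from the same data, so the shares are a description. Embryos 3 and 6 also had the highest median signals, 345 and 350, and embryos 1 and 5 the lowest, 319 and 321, and the part of this in the pattern was not tested.

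**Figure D5:**
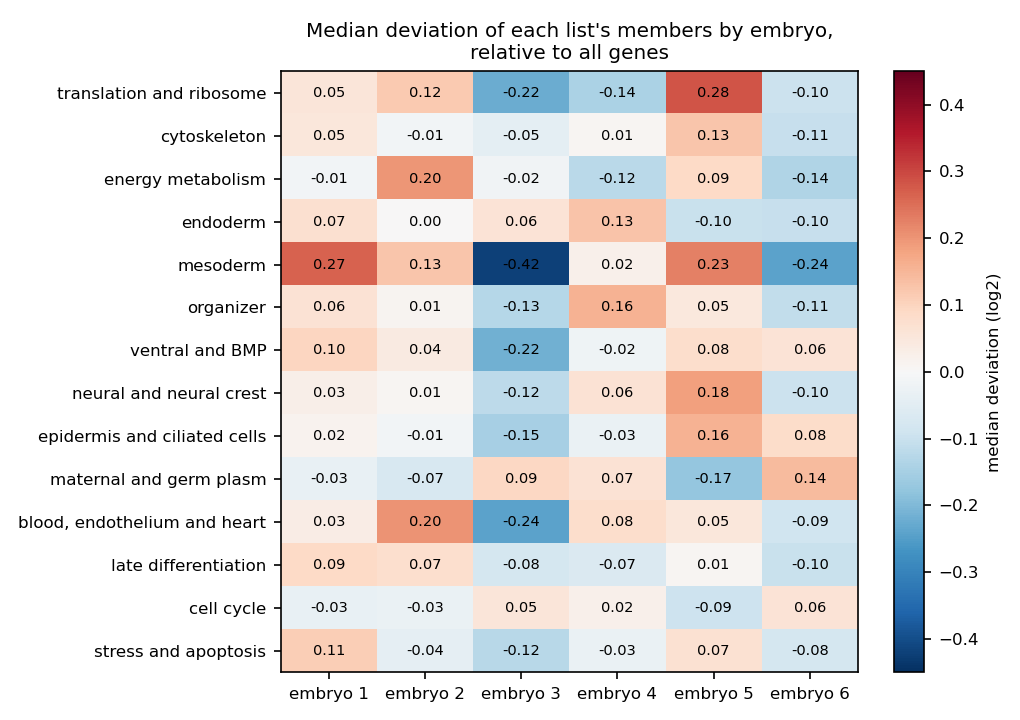
Median deviation of the members of each gene list from their own means in each of the 6 GFP embryos, minus the same median over all 7531 genes, on the log2 scale (red above, blue below). The mesoderm list runs from -0.42 in embryo 3 to 0.27 in embryo 1, and the translation list from -0.22 in embryo 3 to 0.28 in embryo 5.

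The lists differed in which embryos were high and low. Relative to all genes, mesoderm genes deviated by 0.27, 0.13, -0.42, 0.02, 0.23 and -0.24 in embryos 1 to 6. Of the 17 mesoderm genes at or above the median, 13 had their lowest value in embryo 3 or 6 and 12 their highest in embryo 1 or 5, or 76.5% and 70.6%, where all genes had 34.9% and 31.1%. myod1.S, for example, had signals of 600.3, 529, 281, 398, 568 and 323. tbxt.S, the brightest of the list, did not follow this order and was highest in embryo 3. The order was not particular to mesoderm genes. For translation genes the same shares were 63.5% and 71.8%, and for stress and apoptosis genes 72.2% and 33.3%. They were 27.4% and 21.9% for cell cycle genes and 16.7% and 23.8% for maternal genes, below those of all genes. These pairs of embryos were picked from the same data, so the shares are a description.

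Translation and ribosome genes stood out in embryo 5. Of the 85 at or above the median, 56 (65.9%) were highest in embryo 5 and 41 (48.2%) lowest in embryo 3, where all genes had 17.5% and 17.4%. After quantile normalization these counts were 51 and 39, and with arrays scaled to the same median 58 and 43. The shares of all genes under these scalings are not given. Of the 30 genes of energy metabolism at or above the median, 16 (53.3%) were highest in embryo 2, where all genes had 12.9%.

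Maternal and cell cycle genes ran the other way. Of 42 maternal and germ plasm genes at or above the median 22 (52.4%) were lowest in embryo 5, and of 73 cell cycle genes 28 (38.4%), where all genes had 21.5%. Embryo 3 held the highest value of 16 of the maternal (38.1%) and 28 of the cell cycle genes (38.4%), where it was highest for 24.6% of all genes, and some B cyclins stand in both lists. After quantile normalization embryo 3 was highest for 18 maternal and 29 cell cycle genes, and embryo 5 lowest for 22 and 30. With arrays scaled to the same median, embryo 3 was highest for 16 and 21, and embryo 5 lowest for 19 and 23. The cell cycle counts thus moved with the scaling. The shares of all genes under each scaling are not given, so this cannot be read as a change in the cell cycle genes. ccnb1.S, a B-type cyclin and the cell cycle gene of largest SD, had signals of 5081, 3812, 8880, 5601, 2601 and 7572, highest in embryos 3 and 6 and lowest in embryo 5. wnt11.S, a Wnt ligand placed beside wnt11b.L in both the maternal and the mesoderm list, lay below the median and so outside these counts. Its order went against that of the maternal list, with signals of 487, 300.5, 97.0, 393, 424 and 109. The labels give no time or clutch for the single embryos, so the differences between embryos in these lists were not set against either. The 3' to 5' ratio of GAPDH was 47.3 in embryo 3 against 23.0 to 29.9 in the others. Its part in the list differences was not tested.

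A gene measured by 2 probe sets offers a check on its order of embryos with probes that were not used to choose it. For 580 genes with both probe sets at or above the median, the median Pearson correlation over the 6 embryos was 0.44 (median Spearman's rho 0.37), and 443 correlations were above 0. None passed at an adjusted p under 0.05 (0 of 580, or 0%) by the 2-sided exact permutation test with Benjamini-Hochberg adjustment, whose smallest adjusted p was 0.201, and 96 had an unadjusted p under 0.05 for r and 53 for rho. With 6 embryos the smallest unadjusted p in this family was 0.00139. Correlations between unrelated genes were not computed, here or for the L and S copies below. These counts therefore have no background rate beside them. For the 11 of these genes whose first probe set had an SD of at least 0.5, the median correlation was 0.79.

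For 5 of the 24 variable genes such a check existed, and it came out differently among them. hes7.1.L had r = 0.94 and rho = 0.77 (exact permutation p = 0.0111 and 0.103, adjusted p = 0.216 for r), and r was 0.75 without the 2 embryos farthest from the median. Its SD was 0.25 in the other probe set against 0.72 in the first. tsen54.L had r = 0.79 and rho = 0.77 (exact permutation p = 0.0556 and 0.103, adjusted p = 0.288 for r) and 0.43 without the farthest 2, with an SD of 0.18 in that probe set against 1.07. A further tsen54.L probe set, below the median and so not among the 580, had signals of 98.5, 88.6, 258, 216, 67.4 and 242 and an SD of 0.76, with the embryos in the same order as in the first. tmpo.L, a protein of the nuclear lamina, had r = -0.75 and rho = -0.60 (exact permutation p = 0.0722 and 0.242, adjusted p = 0.325 for r) and -0.44 without the farthest 2. The SD of tmpo.L was 0.20 in the other probe set against 0.82 in the first.

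For the others the probe sets did not share an order. cdca7.L had r = 0.07 and rho = 0.26 (exact permutation p = 0.838 and 0.658, adjusted p = 0.932 for r), and -0.05 without the farthest 2. xenf.L had r = 0.11 and rho = 0.03 (exact permutation p = 0.840 and 1, adjusted p = 0.934 for r), and 0.78 without the farthest 2. The SD of cdca7.L was 0.21 and that of xenf.L 0.20 in the other probe set, against 0.90 and 0.75 in the first. Probe sets below the median were outside this check and were not tested. Such a probe set of ag1.S, with a mean signal of 110 and an SD of 0.52, had r = 0.84 and rho = 0.83 to the first. For bmp1.S such probe sets had r = 0.24 and 0.02, and for tmpo.L r = -0.40.

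The L and S copies of a gene are separate genes, and probes of 1 copy can also bind RNA of the other. For 527 pairs with both copies at or above the median, the median correlation over embryos was 0.39 (median rho 0.31), and 391 were above 0. Of these 0 (0%) passed after adjustment, with a smallest adjusted p of 0.183 by the exact permutation test, and 76 had an unadjusted p under 0.05 for r and 58 for rho. For the 20 pairs with an SD of at least 0.5 in 1 copy or both, the median correlation was 0.62 (median rho 0.69), and 18 were above 0. Among the genes named for their largest SD, 3 had their other copy at or above the median. The correlation was 0.01 for ag1, with rho = 0.09 (exact permutation p = 0.979 and 0.919, adjusted p = 0.988 for r), and 0.52 without the farthest 2 embryos. It was 0.01 for anxa2, with rho = 0.26 (exact permutation p = 0.967 and 0.658, adjusted p = 0.985 for r), and 0.05 without the farthest 2. It was 0.44 for atg16l1, with rho = 0.14 (exact permutation p = 0.396 and 0.803, adjusted p = 0.710 for r), and -0.38 without the farthest 2. Of atg16l1.L, 5 probe sets were named in the annotation, with correlations to atg16l1.S between -0.46 and 0.79, so that its assignment is uncertain.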

How the data were processed

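Members, lists, symbol patterns and matching rules were chosen or adjusted with earlier results of these data known, and the SD limit of 0.5 after the values were seen. The deposited table holds intensity values on a linear scale, which the submitters' processing notes credit to MAS5 as run by the authors, without a version or detection calls. Mean signals without the lowest and highest 2% lay at 1000.1 on each array, so no further scaling was applied. Of 15611 probe sets, 120 controls were left out. Precision is limited by the number of arrays.

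Names came from the array's annotation, updated by gene number with a RefSeq table of Xenopus laevis names. This named 1 gene for 9304 probe sets, more than 1 for 195 and none for 5992. Signals were transformed as log2(signal + 16) with no filter. List members were matched by the symbol without L or S. Named were the 20 brightest genes, the 12 brightest and dimmest of each regulator class, the 24 of largest and 8 of smallest SD at or above the median, the highest, lowest and most variable of each list, and markers. No groups were compared. Correlations over 6 embryos had exact permutation tests over all orders of the embryos, and r was repeated without the 2 embryos farthest from the median of the first probe set. The labels do not say whether the embryos shared parents. Alternatives were other pseudocounts, quantile and median scaling, the mean of probe sets, each embryo left out, the median absolute deviation and a level limit at the 75th percentile of probe sets. The correlation code was tested on simulated data. Python 3.11.15, numpy 2.4.6, pandas 2.3.3, scipy 1.17.1 and matplotlib 3.10.9 were used.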

Additional observations from a re-analysis of the deposited data

Results flagged for a closer look

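In 10 of 154 named genes (6.49%) 1 embryo lay far from the other 5, by the gap to its nearest neighbour as a share of the whole range on the log2 scale. Chance gives this in about 1 in 20 groups, a rate that does not apply here, since many of these genes were named for their spread or their low level. The share of all genes that meet this rule is not given, so the 6.49% has no background beside it. Embryo 2 was apart in 3 genes. anxa2.L, an annexin, had 1788 there against 432 to 648 elsewhere (a gap of 0.717 of the range), trim29.L 155 against 496 to 931 (0.642), and igf3.L, an insulin-like growth factor, 45.6 against 5.34 to 10.5 (0.795). Embryo 4 was low in grhl3.L, an epidermal transcription factor, at 235 against 334 to 393 (0.683), and in ldha.L, a lactate dehydrogenase copy, at 24.7 against 62.1 to 91.2 (0.673). Embryo 3 was high in the organizer gene gsc.S, at 471 against 266 to 320 (0.681), and its copy gsc.L was also highest there, at 505. Another probe set of gsc.L, below the median, was not high there, with 61.7 against 61.3 to 133 elsewhere and r = -0.27 to gsc.S. Of the genes given so far, igf3.L and ldha.L were dim in all 6 embryos. igf3.L is among the dimmest signalling genes named above, whose values are at the floor of the measurement. The remaining 4 genes were dim in all 6 embryos as well. Embryo 6 was high in atoh7.S (20.8, a gap of 0.735) and aldh1a1.S (42.4, a gap of 0.664), and embryo 1 in nr1h5.L (a gap of 0.765) and fga.L (24.4, a gap of 0.675).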

How the results depend on the processing

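Of 629 values computed for 53 results under 13 alternative settings, 586 moved by less than the limit set for their kind (1.5 times for counts) and 43 moved further. Of the 20 brightest genes, 13 stayed among the 20 when a gene was the mean of its probe sets, and 19 or 20 without any 1 embryo. Genes with an SD of at least 0.5 numbered 110, 33 among genes of a higher level limit and 82 to 143 without 1 embryo. Of the 24 genes of largest SD, 11 were shared with the median absolute deviation, 8 with the higher level limit, where fewer genes are eligible, and 19 to 22 without 1 embryo. Pairs of probe sets at an unadjusted p under 0.05 numbered 96, and 52 to 71 without 1 embryo. Pairs of L and S copies numbered 76, and 49 to 65. With 5 embryos the exact test has fewer orders. No pair passed after adjustment under any alternative, which says nothing about stability, since so few embryos hardly allow a pass. The SD of tsen54.L, 1.07, was 0.65 with the mean of its probe sets, and that of tmpo.L 0.21 in place of 0.82. Counts of list members and of regulators at or above the median kept within 1.5 times under each alternative run. Levels near the 10th percentile of an array are limited by background. No paired analysis was possible because no groups were compared.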

Other observations

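Some genes below the median also varied widely and were left out of the ranking of SDs by its level limit. cdh1.S, which encodes the epithelial cadherin, had signals of 363, 377, 459, 41.8, 50.7 and 517 in embryos 1 to 6, low in embryos 4 and 5. gbx2.2.L, a homeobox gene of the posterior neural plate, had 268, 196, 37.3, 179, 441 and 23.2, low in embryos 3 and 6. Its other probe set had 92.2, 80.5, 96.1, 52.3, 107 and 48.9 (r = 0.48), and embryo 3 was not low in it. sst.1.L, a somatostatin precursor, had 325 in embryo 5 and 14.6 to 72.9 in the others. fst.L, the activin and BMP inhibitor follistatin, ranged from 21.2 in embryo 2 to 211 in embryo 1.

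A few probe sets split the embryos into high and low values with none between. By a rule set after the data were seen (a gap of at least 1 on the log2 scale, each side spanning no more than 50% of the gap), 8 probe sets did so, 5 of them with a gene name. The most extreme was a probe set of polr2i.S, a subunit of RNA polymerase II, with 6785, 70.6, 30.1, 4649, 6445 and 3701. It does not represent the gene, whose brightest probe set ranged from 5676 to 7268. rhbdd2.S was high in embryos 2 and 4 (2134 and 2116) against 642 to 778, and a probe set of xmc.L was low in embryos 3 and 6 (682 and 765) against 1702 to 2229. pcdh8.2.L and gjb2.L are described above. The embryos on the low side were the same for gjb2.L and xmc.L and differed among the rest.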
